A study of Danio rerio with 6 samples.

Results

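Messenger RNA of whole zebrafish embryos exposed to 200 μg/l pentachlorophenol (PCP) and collected at 24 hours post-fertilization (hpf), the 24H group, was set against that of solvent-exposed embryos of the same age, the 24C group. Both groups were wild-type Tuebingen embryos raised in water with dimethyl sulfoxide (DMSO), and 24C received DMSO without PCP. Each group was a single library made from a pool of embryos, so the comparison uses 2 of the 6 libraries of the series. All genes of the table were taken as members, 21217 of its 21228 entries, after 11 entries that merge many unrelated clones under a bare name prefix were left out. DMSO embryos collected at 10 hpf, the 10C group, were used to place the values of 24H within or outside the range of both controls.

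PCP is a chlorinated phenol once used widely as a wood preservative and biocide, and it is known as an uncoupler that lets protons cross the inner mitochondrial membrane without making ATP. At the age of 10C, the zebrafish embryo closes gastrulation and its tail bud starts to produce somites under the control of an oscillating segmentation clock. At the age of 24C, the trunk and most of the tail are segmented, the fast and slow muscle fibres of the somites contract, the lens and retina are forming, melanin appears, red blood cells circulate and the first neurons have extended axons. Genes of all these tissues are described below. In RNA of whole embryos, fewer cells of a type and less RNA per cell cannot be told apart.

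The values were normalized counts, that is, reads of a gene divided by the size factor of its library, and the fold change (FC) was the value of 24H over that of 24C. The libraries held 59864868 reads in 24H and 47409208 reads in 24C, with 50320856 reads in 10C, and a single read was worth 0.862 normalized counts in 24H and 1.07 in 24C. With 1 library per group there was no replicate check, and no p-value across genes is given. A gene was said to have risen or fallen if it was past 2-fold and reached 100 normalized counts in the higher of 24H and 24C. The range in parentheses after an FC is a 95% interval from the read counts by the method of Clopper and Pearson. It reflects the error of counting alone and not the differences between embryos, pools or libraries. The 10 most abundant genes held 11.6% of the reads in 24H and 8.12% in 24C, and 19859 genes had a read in 24H, against 19961 in 24C.

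In 24H, 1920 genes rose, which is 9.05% of all genes, and 1955 fell, which is 9.21%. Among the 12965 genes that reached 100 normalized counts in either library, these are 14.8% and 15.1%. A further 2848 genes were past 2-fold without reaching 100 in either library and are not described. The median log2 FC was 0.05 over the 13704 genes that averaged at least 50 normalized counts over the 6 libraries, and this median is the level against which the gene lists below are read. Symbols that begin with LOC, which carry no gene name in the table, made up 645 of the genes that rose and 567 of those that fell. Large changes were more often downward: 193 genes fell more than 10-fold and 103 rose more than 10-fold.

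**Figure D1:**
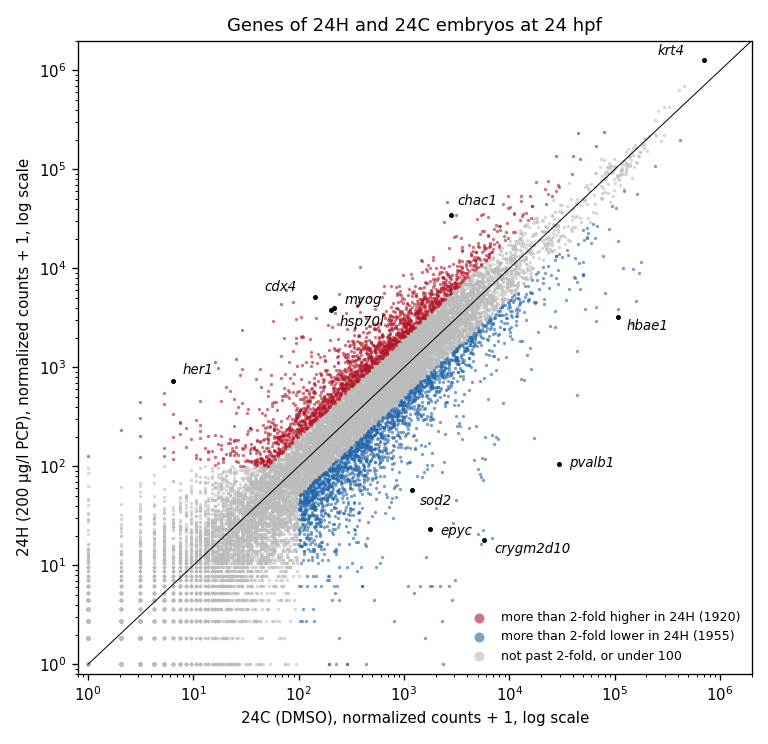
Normalized counts plus 1 of every gene in 24H (vertical axis) against 24C (horizontal axis), both on log scales, with 1 library per group. Red points are the 1920 genes more than 2-fold higher in 24H, blue points the 1955 genes more than 2-fold lower, grey points the genes that were not past 2-fold or were under 100 in both, and the line marks equal values.

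The genes that rose and those that fell were placed differently relative to the controls. Of the genes that rose, 774 were more than 2-fold above both 24C and 10C (40.3% of those that rose, and 3.65% of all genes), 534 were up to 2-fold above both (27.8%) and 612 lay between 10C and 24C (31.9%). Of the genes that fell, 359 were more than 2-fold below both 24C and 10C (18.4% of those that fell, and 1.69% of all genes), 362 were up to 2-fold below both (18.5%) and 1234 lay between 10C and 24C (63.1%). A gene that fell was in most cases one with a higher value in 24C than in 10C (1747 of 1955), and a gene that rose was in most cases one with a lower value in 24C than in 10C (1355 of 1920). The range and the FC both use the 24C library, so these shares are a description and not independent of the FC. A fallen gene with no read in 10C cannot lie below 10C and was counted as between, and one with few reads there has little room below. Genes that rose have no such limit, so part of the difference between the shares follows from how they were counted.

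**Figure D2:**
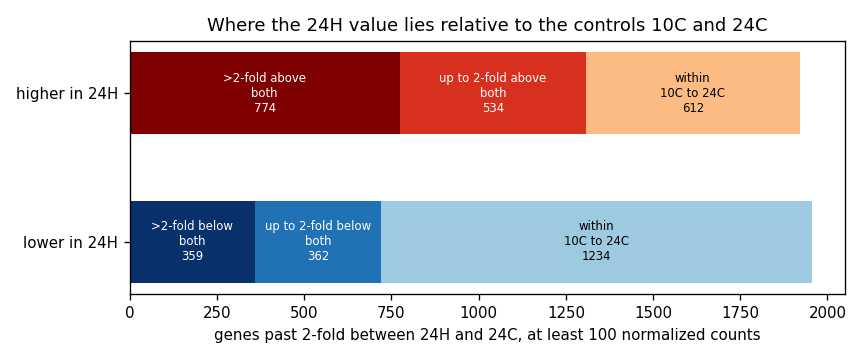
Number of genes that were past 2-fold between 24H and 24C with at least 100 normalized counts, split by where the 24H value lay relative to the 10C and 24C libraries. The upper bar holds the genes higher in 24H (774, 534 and 612) and the lower bar those lower in 24H (359, 362 and 1234), and the segment within the range is the longest one of the lower bar only.

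The known genes were then read as 60 lists of tissues, pathways and complexes. For lists whose members mostly reached 100 normalized counts, the shares among such genes, 14.8% risen and 15.1% fallen, are the closer levels. Where a list count below is printed without shares, the same levels apply to it. Read against 9.05% of all genes, the lists with the largest share of members that rose were tail bud and ventral regulators, the presomitic mesoderm, genes induced in amino acid stress, ribosome biogenesis and aminoacyl-tRNA synthetases, each with more than 50% of members. Read against 9.21%, the lists with the largest share that fell were red blood cells, lens fibre genes, pigment cells, differentiated neurons and the proteasome.

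**Figure D3:**
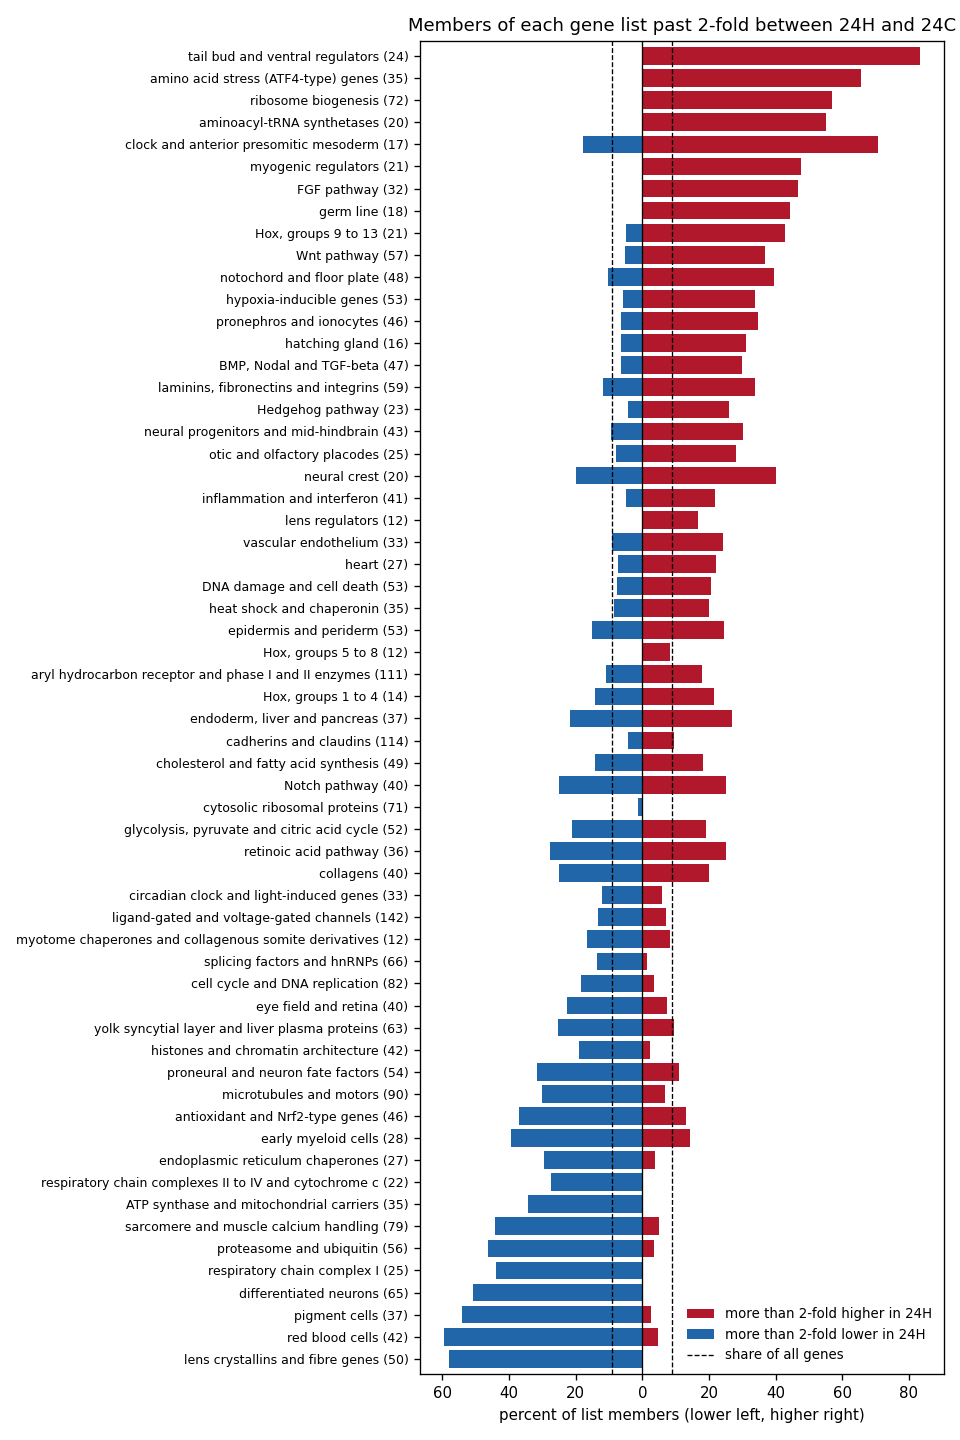
Percent of the members of each gene list that were more than 2-fold higher in 24H than in 24C (red, to the right) or more than 2-fold lower (blue, to the left), with the number of members in the table in parentheses. The dashed lines mark the same shares over all genes, 9.05% to the right and 9.21% to the left.

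The widest differences upward were in the presomitic mesoderm, the unsegmented tissue in which the segmentation clock runs. Of 17 clock and anterior presomitic genes, 12 rose and 3 fell, with a median log2 FC of 3.65. Of the 17, 8 reached 100 normalized counts in both 24H and 24C. The rest, such as her1, mespa and tbx16, reached it in a single library, so the minimum let them in through the library where they were high. her1, a Hairy-type repressor at the core of the clock, had 735 normalized counts in 24H and 5.35 in 24C, an FC of 137 (58.7 to 424), and 1759.5 in 10C. Its partner her7 had 458 in 24H and 10.7 in 24C, an FC of 42.9 (23.1 to 89.9). msgn1, which drives the exit of cells from the tail bud into the mesoderm, had 6017 in 24H and 74.9 in 24C (FC 80.4, 63.5 to 103), with 20859 in 10C. The T-box genes of the paraxial mesoderm moved alike. tbx16, the gene mutated in spadetail, had 2381 in 24H and 27.8 in 24C (FC 85.6, 58.3 to 131), and tbx24, listed in RefSeq as tbx6, had 4336 in 24H and 67.4 in 24C (FC 64.3, 50.2 to 83.9).

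Genes of the anterior presomitic mesoderm, where the next somite boundary is laid down, were also higher. mespa had 425 normalized counts in 24H and 4.28 in 24C, an FC of 99.3 (38.5 to 366), and with 221 in 10C it was one of 2 members of this list above both controls. mespb had 125 in 24H and no read in 24C, 38.9-fold higher when 24C is set at a floor of 3 reads per library. pcdh8, the paraxial protocadherin, had 2918 in 24H and 55.6 in 24C (FC 52.5, 39.9 to 70.4), and ripply1, which closes the mesp programme, had 2573 in 24H and 204 in 24C (FC 12.6, 10.9 to 14.7). The 3 members that fell were her12, her15 and hes6, all of the Hairy and Enhancer of split family. Of these, hes6 had 1332 in 24H and 2928 in 24C (FC 0.455, 0.427 to 0.485), and her12 lay near the threshold at an FC of 0.492 (0.465 to 0.521). The Delta ligand dlc had 2096 in 24H and 1904 in 24C, an FC of 1.10 (1.04 to 1.17) that did not pass.

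The tail bud and the ventral mesoderm showed the same direction, with 20 of 24 genes that rose, none that fell and a median log2 FC of 1.95. Of the 24, 16 reached 100 normalized counts in both 24H and 24C, and the rest in a single library. cdx4, a caudal-type homeobox gene, had 5097 normalized counts in 24H, 141 in 24C and 26788 in 10C (FC 36.1, 30.4 to 43.2). The ventral homeobox repressors vent, ved and vox, which act downstream of BMP, had FCs of 27.1 (17.4 to 44.7), 21.5 (18.1 to 25.7) and 6.39 (5.68 to 7.22). ntla, the zebrafish Brachyury gene, had 1991 in 24H and 579.8 in 24C (FC 3.43, 3.13 to 3.78). The early stem-like factor pou5f1, listed in RefSeq as pou5f3, had 613 in 24H and 71.7 in 24C (FC 8.55, 6.65 to 11.2). Of these 20 genes, 17 lay between the controls, which means that 24H was above 24C and below 10C. wnt3a, a tail bud Wnt ligand, was the single member more than 2-fold above both, with 240.4 in 24H, 104 in 24C and 109 in 10C.

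Hox genes, which set position along the body axis, differed by group. Of 21 genes of groups 9 to 13, the posterior groups, 9 rose and 1 fell, with a median log2 FC of 0.92, and 7 of those that rose were more than 2-fold above both controls. hoxd12a had 1152 normalized counts in 24H and 295 in 24C (FC 3.90, 3.43 to 4.46), hoxc12a had 1220.3 in 24H and 523 in 24C (FC 2.33, 2.1 to 2.59), and 10C had 22.0 and 4.2. hoxb13a fell, with 119.8 in 24H and 424 in 24C (FC 0.283, 0.231 to 0.344). Among the 14 genes of groups 1 to 4, 3 rose (21.4%) and 2 fell (14.3%). All 14 reached 100, and among all genes that did so 14.8% rose and 15.1% fell. hoxb1b had an FC of 3.81 (3.57 to 4.07) and hoxa1a had one of 0.403 (0.287 to 0.560). Of the 12 genes of groups 5 to 8, hoxb7a alone passed, with an FC of 3.69 (3.29 to 4.15), and the median was -0.42.

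Skeletal muscle split into regulators that rose and contractile products that fell. Of 21 myogenic regulators, 10 rose and none fell, with a median log2 FC of 1.13, and 5 were more than 2-fold above both controls. myf5, the first of the myogenic determination factors, had 3506 normalized counts in 24H and 280.3 in 24C (FC 12.5, 11 to 14.2), and 10C had 3953. myod1, the second determination factor, had 3712 in 24H, 958 in 24C and 1132 in 10C (FC 3.87, 3.60 to 4.17). myog, which starts terminal differentiation, had 4007 in 24H and 216 in 24C (FC 18.5, 16.1 to 21.5) and stood far above the 11.5 of 10C too. The MEF2 factors mef2d and mef2ca, partners of the determination factors, had FCs of 5.15 (4.59 to 5.80) and 2.94 (2.70 to 3.22), and meox1, a somite homeobox gene, had one of 7.39 (6.88 to 7.94).

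Of 79 genes of the sarcomere and of muscle calcium handling, 35 fell and 4 rose, and the median log2 FC was -0.88. All of the 35 that fell lay between 10C and 24C, where a gene with few or no reads in 10C has little or no room to lie below it. The lowest were products of fast muscle. pvalb1, a parvalbumin that buffers calcium in fast fibres, had 104 normalized counts in 24H and 29468 in 24C (FC 0.00354, 0.00294 to 0.00423), and 10C had 18.9. tnnt3b, a fast troponin T, had 190.5 in 24H and 17199.6 in 24C (FC 0.0111, 0.00965 to 0.0126). mylz2, the fast myosin light chain listed in RefSeq as mylpfa, had 11502 in 24H and 177162 in 24C (FC 0.0649, 0.0638 to 0.0661). The muscle creatine kinase ckma and the alpha-actin acta1b had FCs of 0.168 (0.164 to 0.173) and 0.292 (0.286 to 0.299). In contrast to these, smyhc1, a slow myosin heavy chain, had 29279.6 in 24H and 17364 in 24C, an FC of 1.69 (1.65 to 1.72) that did not pass. xirp1, an actin-binding repeat protein of muscle attachment sites, rose to 5674 in 24H, against 651 in 24C and 103 in 10C (FC 8.71, 8.01 to 9.48). A further list of 12 myotome chaperones and somite-derived genes held 1 member that rose (8.33%) and 2 that fell (16.7%). Of the 12, 10 reached 100, and among all genes that did so 14.8% rose and 15.1% fell, so the list lay near those levels. The member that rose was hsp90a, the chaperone of myosin folding, at an FC of 2.60 (2.55 to 2.65). Those that fell were hspb7, a small heat shock protein of heart and muscle, and nkx3, a name cut short in the table.

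**Figure D4:**
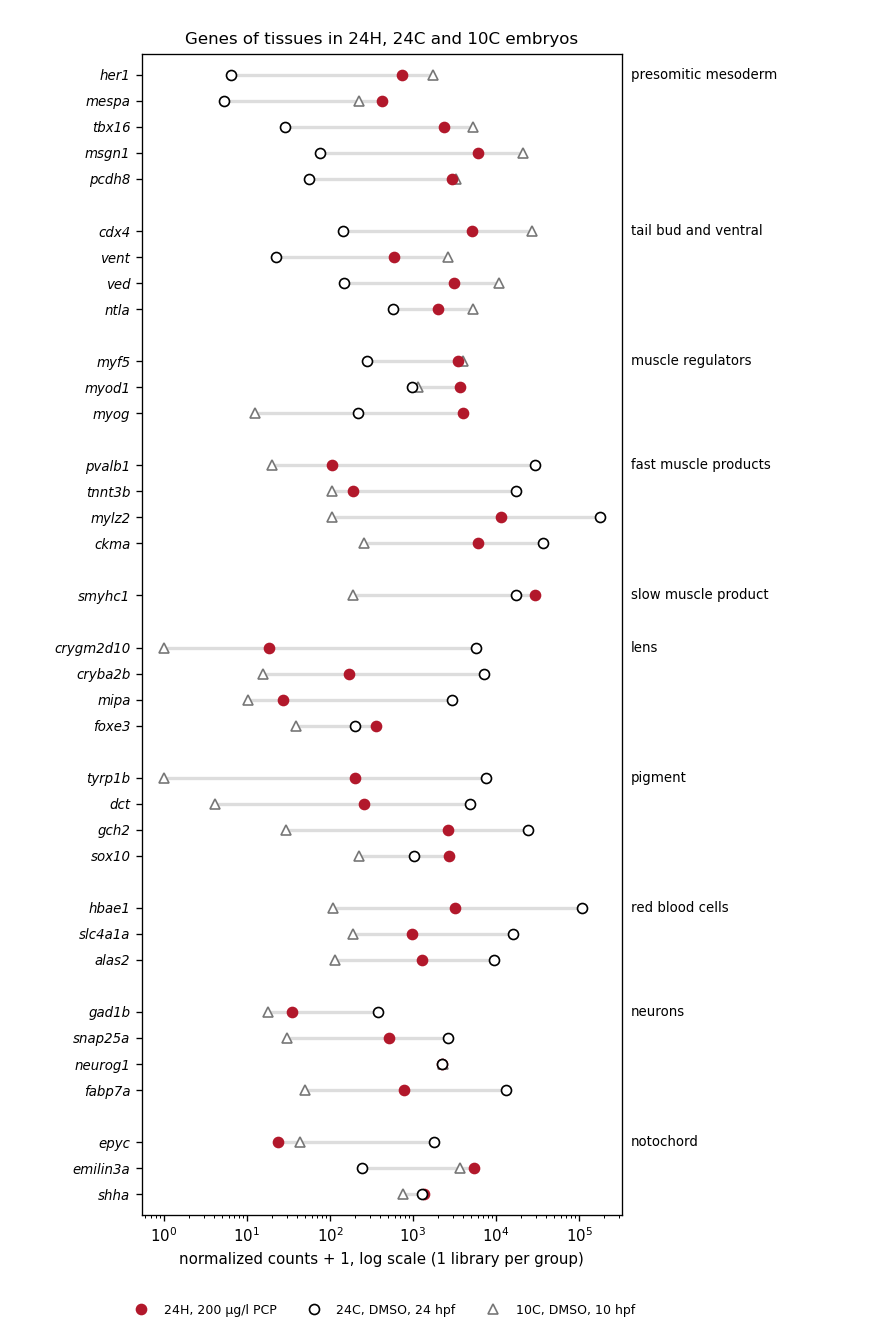
Normalized counts plus 1 on a log scale of genes of 10 tissues or groups in the 24H library (filled red circles), the 24C library (open circles) and the 10C library (triangles). For presomitic and tail bud genes other than mespa the red circle sits between the open circle and the triangle, and for fast muscle products, red blood cells, neurons, the 3 lens products and the 3 pigment enzymes it sits between the triangle and the open circle, while myog, myod1, smyhc1, foxe3, sox10 and emilin3a lie to the right of both controls.

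The lens had the lowest median of the 60 lists, -6.90 on the log2 scale over those members abundant enough for it. Of 50 crystallin and fibre genes in the table, 29 reached 100 normalized counts and all 29 fell, while the other 21 stayed under 100 in both libraries. Of the 29, 7 reached 100 in both 24H and 24C. The rest reached it in 24C only, so the minimum let them in through the library where they were high. The gamma-M crystallins, water-clear proteins of the fish lens, form a family of near-identical copies, so the reads of single copies are uncertain. crygm2d10 had 17.2 normalized counts in 24H and 5797 in 24C (FC 0.00297, 0.00181 to 0.00460). crygm2d6 had no read in 24H and 434 in 24C, 168-fold lower with 24H set at the floor of 3 reads. The beta-crystallin gene cryba2b had 169 in 24H and 7124 in 24C (FC 0.0237, 0.0205 to 0.0273), and the lens aquaporin gene mipa had 25.9 in 24H and 2915 in 24C (FC 0.00887, 0.00597 to 0.0127). Of 12 genes that regulate the lens, 2 rose (16.7%) and none fell. Of these, 11 reached 100, and among all genes that did so 14.8% rose and 15.1% fell. With so few genes, the counts do not set this list apart from those levels. foxe3, a forkhead factor of the lens epithelium, had 360.2 in 24H and 199 in 24C, an FC of 1.81 (1.52 to 2.16), and mafba had 3014 in 24H and 737 in 24C (FC 4.09, 3.77 to 4.44).

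In the eye field and retina, 9 of 40 genes fell and 3 rose. atoh7, needed for the first retinal ganglion cells, had no read in 24H and 194 normalized counts in 24C. With 24H set at the floor of 3 reads it was 74.9-fold lower, and the upper end of the interval of its FC was 0.0166. ptf1a and foxn4, which act in amacrine and horizontal cell precursors, had FCs of 0.0898 (0.0624 to 0.126) and 0.142 (0.122 to 0.165). rx1 and rx2, of retinal progenitors, had 846 and 217 in 24H and 1256 and 413 in 24C and did not pass. The members that rose were otx1b, six7 and rx3, early genes of the head and the eye field: six7 had 1125 in 24H, 15 in 24C and 4474 in 10C (FC 75.1, 44.6 to 138), and rx3 had 461 in 24H, 119 in 24C and 3447 in 10C.

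Pigment cells come from the neural crest. Of 37 pigment genes, 20 fell and 1 rose, with a median log2 FC of -1.61. tyrp1b and dct, enzymes of melanin synthesis, had 197 and 254 normalized counts in 24H and 7496 and 4790.1 in 24C, FCs of 0.0263 (0.0230 to 0.0300) and 0.0531 (0.0470 to 0.0597). gch2, which makes the pteridines of xanthophores, had 2638 in 24H and 24431 in 24C (FC 0.108, 0.104 to 0.112). pnp4a, a purine enzyme of iridophores, had 107 in 24H, 1065 in 24C and 377 in 10C and was the member more than 2-fold below both controls. mitfa, the melanocyte master factor, had 147 in 24H and 484 in 24C (FC 0.303, 0.253 to 0.362). Of 20 neural crest genes, 8 rose and 4 fell. sox10, the crest factor upstream of mitfa, had 2680.1 in 24H, 1023 in 24C and 223 in 10C (FC 2.62, 2.44 to 2.82). foxd3 had an FC of 4.11 (3.71 to 4.57) and snai1b, a repressor of epithelial genes in migrating cells, had one of 9.0 (7.58 to 10.8). The 4 that fell included tfap2e, dlx1a and ednrb1, and ednrb1, an endothelin receptor gene of pigment cells, had 30.2 in 24H and 191 in 24C (FC 0.158, 0.106 to 0.227).

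Red blood cell genes fell in 25 of 42 cases and rose in 2, with a median log2 FC of -1.56. The embryonic globins were the most abundant of them. hbae1 had 3229 normalized counts in 24H and 107638 in 24C (FC 0.0300, 0.0290 to 0.0310), hbae3 had 9055 in 24H and 169874 in 24C (FC 0.0533, 0.0523 to 0.0544) and hbbe1 had 9902 in 24H and 149327 in 24C (FC 0.0663, 0.0651 to 0.0676). Each of these globins was above its 10C value, which was 108, 324 and 434. slc4a1a, the band 3 anion exchanger, and alas2, the first enzyme of haem synthesis in erythroid cells, had FCs of 0.0596 (0.0560 to 0.0633) and 0.137 (0.130 to 0.145). slc25a38a, the mitochondrial glycine carrier of haem synthesis, went the other way, with 779.9 in 24H, 81.3 in 24C and 69.2 in 10C (FC 9.59, 7.59 to 12.3). Its duplicate slc25a38b had 266 in 24H and 351 in 24C and did not pass. Early myeloid genes fell in 11 of 28 cases and rose in 4: the lysozyme gene lyz had 218 in 24H and 3276 in 24C (FC 0.0665, 0.0583 to 0.0757), and the neutrophil protease gene npsn had an FC of 0.0604 (0.0483 to 0.0746), whereas spi1, the myeloid master factor, had 219 in 24H and 124 in 24C and did not pass.

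In vascular endothelium, 8 of 33 genes rose (24.2%) and 3 fell (9.09%). All 33 reached 100 normalized counts, and among all genes that did so 14.8% rose and 15.1% fell. The receptor gene kdr had 3153 normalized counts in 24H, 438 in 24C and 1096 in 10C (FC 7.21, 6.51 to 8.0), and etv2, which specifies the lineage, had an FC of 2.50 (2.28 to 2.75). The receptor gene kdrl had 1202 in 24H and 1016 in 24C and did not pass. The endothelial cadherin gene cdh5 was lower, with 523 in 24H and 980 in 24C, an FC of 0.534 (0.481 to 0.592) that did not pass. lyve1, of later vein and lymph vessels, fell with an FC of 0.109 (0.0833 to 0.140), and dab2 fell with one of 0.304 (0.274 to 0.336). In the heart list, 6 of 27 genes rose (22.2%) and 2 fell (7.41%). All 27 reached 100, so the fallen share was under the 15.1% of such genes. nppa, the atrial natriuretic peptide gene, had 12.9 in 24H and 227 in 24C (FC 0.0570, 0.0313 to 0.0962), and the cardiac light chain gene myl7 had an FC of 0.424 (0.396 to 0.454). has2, which makes hyaluronan of the cardiac jelly, had 860.0 in 24H and 72.7 in 24C (FC 11.8, 9.24 to 15.3). The ventricular myosin gene vmhc had 1599 in 24H and 1805 in 24C, an FC of 0.886 (0.829 to 0.947).

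Genes of differentiated neurons fell in 33 of 65 cases and rose in none, with a median log2 FC of -1.37. Of the 65, 50 reached 100 normalized counts in either library and 34 in both, so some were let in only through the library where they were high. grin1a, a glutamate receptor subunit, had 8.62 normalized counts in 24H and 239 in 24C (FC 0.0361, 0.0171 to 0.0677). gad1b, which makes GABA, had 33.6 in 24H and 374 in 24C (FC 0.0898, 0.0628 to 0.125), and the synaptic gene snap25a had 508 in 24H and 2627 in 24C (FC 0.193, 0.176 to 0.211). elavl3, a broad early marker of neurons, had 2039 in 24H and 3267 in 24C, an FC of 0.624 (0.591 to 0.659) that did not pass. Of 54 proneural and fate factors, 17 fell and 6 rose. Those that fell included otpa of the hypothalamus with an FC of 0.0747 (0.0581 to 0.0949) and atoh1b of the dorsal hindbrain with one of 0.163 (0.144 to 0.184), and those that rose included gata2a and gata3 with FCs of 2.92 (2.66 to 3.21) and 2.78 (2.61 to 2.97). neurog1, the first proneural factor of the neural plate, had 2247 in 24H, 2219 in 24C and 2322 in 10C. isl2a, of primary motor and sensory neurons, also rose, to 1894 in 24H, against 792 in 24C and 728 in 10C.

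Progenitor and boundary genes of the brain were mixed. Of 43 genes of neural progenitors and the mid-hindbrain, 13 rose and 4 fell. sox2 and sox3, the SoxB1 factors of progenitors, had FCs of 1.14 (1.09 to 1.19) and 0.907 (0.882 to 0.932). egr2b, which marks hindbrain segments, had 1304 normalized counts in 24H, 67.4 in 24C and 694 in 10C (FC 19.3, 15 to 25.3), and her11 and her5 of the midbrain-hindbrain boundary had FCs of 15.6 (10.4 to 24.6) and 4.61 (3.43 to 6.29). The radial glia gene fabp7a had 769 in 24H and 12990.3 in 24C (FC 0.0592, 0.0552 to 0.0633), and gfap had an FC of 0.515 (0.499 to 0.531). In the otic and olfactory placodes, 7 of 25 genes rose (28.0%) and 2 fell (8.0%). Of the 25, 21 reached 100, and among all genes that did so 14.8% rose and 15.1% fell. pax8 had an FC of 6.23 (5.42 to 7.2), and otomp, an otolith matrix gene of the ear, had one of 0.394 (0.348 to 0.445). Of 90 genes of microtubules and motors, 27 fell and 6 rose, led by the neuronal tubulin gene tubb5 with 2284 in 24H and 18587 in 24C (FC 0.123, 0.118 to 0.128). Of 142 ligand-gated and voltage-gated channel genes, 19 fell (13.4%, against 9.21% of all genes) and 10 rose (7.04%, against 9.05%). Of the 142, 91 stayed under 100 in both libraries.

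The notochord list rose in 19 of 48 cases and fell in 5, with a median log2 FC of 0.82. emilin3a, an extracellular protein of the notochord sheath, had 5458 normalized counts in 24H, 239.6 in 24C and 3637 in 10C (FC 22.8, 19.9 to 26.1). loxl5b, a lysyl oxidase that crosslinks collagen, had 2655 in 24H, 190.4 in 24C and 314 in 10C (FC 13.9, 12 to 16.3). epyc, a small proteoglycan, had 22.4 in 24H and 1772 in 24C (FC 0.0126, 0.00823 to 0.0186), under the 43 of 10C. shha, the Sonic hedgehog gene of notochord and floor plate, had 1343 in 24H and 1287 in 24C and did not pass, and col2a1a, the main sheath collagen, had an FC of 1.28 (1.26 to 1.31). Laminins, fibronectins and integrins rose in 20 of 59 cases and fell in 7. lamb1a and lamc1, basement membrane chains needed for notochord growth, had FCs of 6.46 (6.26 to 6.66) and 3.30 (3.22 to 3.39), both within the controls, whereas fn1b had 29234 in 24H, 2391 in 24C and 11414 in 10C (FC 12.2, 11.7 to 12.8).

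Collagens divided into 8 of 40 that rose and 10 that fell. All 8 that rose were more than 2-fold above both controls, among them col7a1l, an anchoring fibril chain of skin, with 9168 normalized counts in 24H and 1468 in 24C (FC 6.25, 5.91 to 6.61). col1a1a, the fibrillar collagen of dermis and bone, fell to 22597 in 24H, against 55364 in 24C (FC 0.408, 0.402 to 0.414). In epidermis and periderm, 13 of 53 genes rose (24.5%) and 8 fell (15.1%). Of the 53, 51 reached 100, and among all genes that did so 14.8% rose and 15.1% fell. The actinodin genes, which encode the fibres of the larval fin fold, were among the lowest of all genes: and2 had 5.17 in 24H and 1855 in 24C (FC 0.00279, 0.00102 to 0.00608), and and3 had 4.31 in 24H and 1246 in 24C (FC 0.00346, 0.00112 to 0.00809). Among the genes that rose, the keratin gene krt5 had 235207 in 24H, 44526 in 24C and 198459 in 10C (FC 5.28, 5.23 to 5.34), and tp63, the basal layer factor, had an FC of 2.69 (2.56 to 2.83). In the hatching gland, 5 of 16 genes rose and 1 fell: the hatching enzyme genes he1a and he2 had FCs of 0.690 (0.685 to 0.695) and 6.66 (6.18 to 7.17), and ctsl1b had one of 0.966 (0.957 to 0.975). he1a stood at 105899 in 24H, 153456 in 24C and 3807 in 10C, so for this gene 24H was closer to 24C than to 10C. Cadherins and claudins rose in 11 (9.65%) and fell in 5 (4.39%) of 114 cases, near and under the 9.05% and 9.21% of all genes.

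Signalling pathways of axis formation were higher for FGF and Wnt. Of 32 FGF pathway genes, 15 rose and none fell, with a median log2 FC of 1.27. The ligand gene fgf8a had 2284 normalized counts in 24H, 405 in 24C and 4629 in 10C (FC 5.63, 5.06 to 6.29). Its feedback targets moved with it: dusp6, a phosphatase of ERK, had an FC of 2.50 (2.40 to 2.60), spry4 one of 3.05 (2.83 to 3.30) and pea3, the ETS factor listed in RefSeq as etv4, one of 3.79 (3.57 to 4.01). Of 57 Wnt pathway genes, 21 rose and 3 fell. wnt8a, the ligand of the tail bud and ventral margin, had 124 in 24H, 1027 in 10C and only 2 reads in 24C, a ratio of 58.0 (15.8 to 484). sp5l, a Wnt target, had 1121 in 24H and 80.2 in 24C (FC 14, 11.1 to 17.9), and lef1 had an FC of 2.49 (2.27 to 2.73). axin2, the general feedback target, had 4373 in 24H and 2637 in 24C, an FC of 1.66 (1.58 to 1.74) that did not pass. The ligand gene wnt7ba was above both controls, with 162 in 24H, 17.1 in 24C and 40.9 in 10C.

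Of 47 genes of BMP, Nodal and TGF-beta signalling, 14 rose and 3 fell. foxh1, the Nodal transcription factor, had 260.3 normalized counts in 24H, 10.7 in 24C and 2050.2 in 10C (FC 24.3, 13 to 51.3). lft1, a Nodal antagonist of the midline, had an FC of 21.1 (11.3 to 44.5), and cha, the Cerberus-like gene of Kupffer's vesicle listed in RefSeq as dand5, had one of 11.9 (8.2 to 17.8) and lay above both controls. id4, a BMP target, fell with an FC of 0.205 (0.169 to 0.248). Of 23 Hedgehog genes, 6 rose and 1 fell. gli1 had 3051 in 24H, 948 in 24C and 1256 in 10C (FC 3.22, 2.99 to 3.47), while the receptor gene ptch1 had an FC of 1.23 (1.15 to 1.32) and did not pass.

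Notch genes rose in 10 and fell in 10 of 40 cases. Those that fell included ligand and effector genes used in neurogenesis, such as dlb with an FC of 0.316 (0.302 to 0.331) and her4 with one of 0.233 (0.218 to 0.249), although her4 is a name cut short in the table that may pool several copies. notch2 rose to 6301 normalized counts in 24H, against 2966 in 24C. In retinoic acid signalling, 9 of 36 genes rose and 10 fell. aldh1a2, the main synthesizing enzyme of the somites, had an FC of 1.36 (1.29 to 1.44), nr2f5, an orphan receptor, had one of 3.20 (3.10 to 3.31), and the retinol carrier gene rbp2b had 102 in 24H and 1653 in 24C (FC 0.0615, 0.0506 to 0.0742).

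In the pronephros and the ionocytes of the skin, 16 of 46 genes rose and 3 fell. The ionocyte factor foxi3a had 1521 normalized counts in 24H, 379 in 24C and 769 in 10C (FC 4.02, 3.58 to 4.52), and rfx2, a factor of ciliated cells, had an FC of 4.68 (4.39 to 4.99). cdh17, a cadherin of the duct, had 5584 in 24H and 3619 in 24C and did not pass. In endoderm, liver and pancreas, 10 of 37 genes rose and 8 fell. The islet hormone genes fell, with ins at 108 in 24H and 811 in 24C (FC 0.133, 0.109 to 0.161) and gcgb at 8.62 in 24H and 287 in 24C (FC 0.0301, 0.0143 to 0.0561). pdx1, the pancreatic bud factor, had 166 in 24H and 136 in 24C and did not pass, and rfx6, an endocrine precursor factor, rose to 118 in 24H, against 10.7 in 24C and 21.0 in 10C.

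Plasma protein genes, transcribed at this age mainly by the yolk syncytial layer, fell in 16 of 63 cases and rose in 6. apoa1 had 200293 normalized counts in 24H and 418790 in 24C (FC 0.478, 0.476 to 0.481), the largest loss in normalized counts of any named gene, and the transferrin gene tfa had an FC of 1.22 (1.21 to 1.23). anpep, an aminopeptidase of absorptive epithelia, had 549 in 24H, 4.28 in 24C and 774 in 10C (FC 128, 49.9 to 472). abcb11a, a homologue of the bile salt export pump, had 10334 in 24H, 379.7 in 24C and 3298 in 10C (FC 27.2, 24.5 to 30.3). cyp11a1, whose product starts steroid synthesis, had 4542 in 24H, 86.6 in 24C and 6172 in 10C (FC 52.4, 42.1 to 66.1).

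Another group of genes lay outside both controls, where the value of 24H was not between those of 10C and 24C. The 10 named genes furthest above the higher control were myog, cyp24a1, hsp70l, chac1, igfbp1a, irf3, nitr8, egln3, slc25a38a and dlgap1. cyp24a1, which breaks down active vitamin D, had 1768 normalized counts in 24H, 93.1 in 24C and 86.0 in 10C (FC 19, 15.3 to 23.8). irf3, a factor of the interferon response, had 280.1 in 24H, 6.42 in 24C and 24.1 in 10C (FC 43.6, 19.8 to 119.8), and its FC rests on 6 reads in 24C. dlgap1, a scaffold protein of synapses, had 2008 in 24H, 108 in 24C and 214 in 10C (FC 18.6, 15.2 to 22.9). The 10 furthest below the lower control were sod2, scai, dusp2, chrna2a, mxra8a, ddx26b, ucp2, eny2, relt and wbscr27, of which sod2 and ucp2 act in mitochondria and are described below.

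The list with the largest share of members more than 2-fold above both controls was that of genes induced by the transcription factor ATF4 when amino acids are short or the kinases of the integrated stress response are active. Of 35 genes, 23 rose and none fell, with a median log2 FC of 1.58. Of the 23, 15 were more than 2-fold above both controls, against 40.3% of all genes that rose. Over the whole list that is 15 of 35, against 3.65% of all genes. chac1, a glutathione-degrading enzyme, had 34430.5 normalized counts in 24H, 2798 in 24C and 2413 in 10C (FC 12.3, 11.8 to 12.8). sesn2, a leucine-binding restraint on mTORC1, had 2726 in 24H, 235 in 24C and 825 in 10C (FC 11.6, 10.1 to 13.3). asns, the asparagine synthetase gene, had 6106 in 24H, 1794 in 24C and 2527 in 10C (FC 3.40, 3.23 to 3.59). The 2 genes that encode ATF4 itself, atf4b1 and atf4b2, had FCs of 2.61 (2.57 to 2.66) and 3.10 (2.99 to 3.21). The serine and one-carbon genes phgdh, psat1, shmt2 and mthfd2 had FCs of 3.14 (3.05 to 3.22), 2.79 (2.70 to 2.89), 2.89 (2.77 to 3.02) and 2.16 (1.99 to 2.35). atf3, cebpg and trib3, regulators in the same response, had FCs of 6.64 (5.65 to 7.85), 4.02 (3.82 to 4.23) and 3.30 (3.11 to 3.50).

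Aminoacyl-tRNA synthetases, which load amino acids onto tRNA and are known targets of ATF4 in mammals, rose in 11 of 20 cases and fell in none, with a median log2 FC of 1.17. All 11 lay above both controls, 6 of them more than 2-fold. nars, the asparaginyl enzyme, had 32836 normalized counts in 24H, 6235 in 24C and 8584 in 10C (FC 5.27, 5.12 to 5.41). aars, the alanyl enzyme, had 47869.8 in 24H, 12773 in 24C and 13315 in 10C (FC 3.75, 3.67 to 3.82). tars, the threonyl enzyme, was nearer the threshold with an FC of 2.12 (2.06 to 2.18). Chaperones of the endoplasmic reticulum, the targets of the other arms of the unfolded protein response, did not rise with them: 8 of 27 fell and 1 rose, ern1, a sensor of that response. hspa5, the main one, had 9974 in 24H, 9586 in 24C and 8036 in 10C. hsp90b1 had 1861 in 24H and 12689 in 24C (FC 0.147, 0.140 to 0.154), and manf had 402 in 24H, 2444 in 24C and 986 in 10C (FC 0.165, 0.149 to 0.182).

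**Figure D5:**
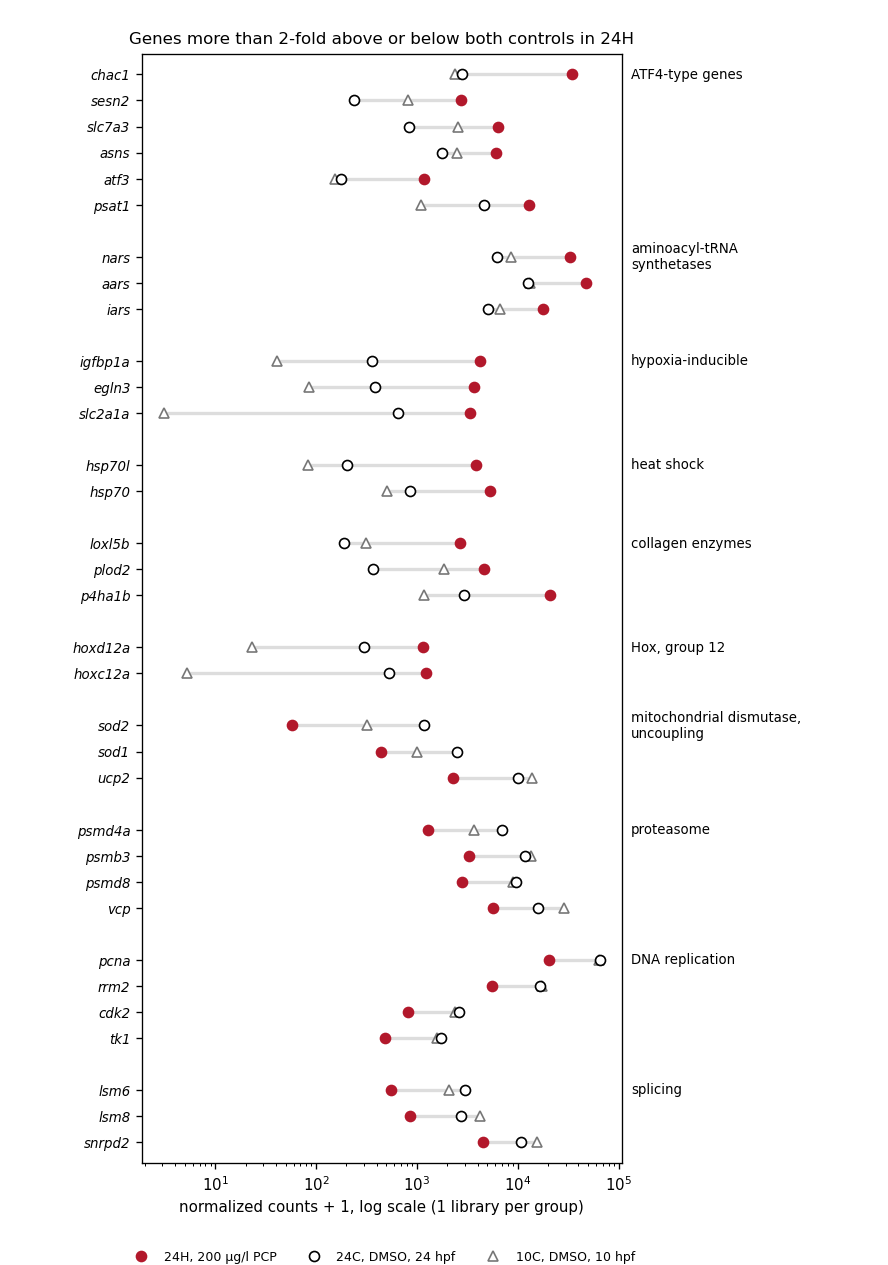
Normalized counts plus 1 on a log scale of 33 genes in the 24H library (filled red circles), the 24C library (open circles) and the 10C library (triangles), grouped by function. In the 6 upper groups the red circle lies to the right of both controls and in the 4 lower groups to the left of both, more than 2-fold in every gene shown. The genes were picked for lying there, so this follows from the choice and does not describe whole groups. The collagen enzymes were grouped after their values were seen.

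Heat shock and chaperonin genes were split, with 7 of 35 that rose and 3 that fell. The inducible hsp70l had 3820.2 normalized counts in 24H, 203 in 24C and 82.9 in 10C (FC 18.8, 16.3 to 21.9), and hsp70 had 5360.2 in 24H, 859 in 24C and 502 in 10C (FC 6.24, 5.80 to 6.72). The constitutive hspa8 had an FC of 1.27 (1.26 to 1.28). hspa9, the mitochondrial Hsp70, had 21090.2 in 24H and 8933 in 24C (FC 2.36, 2.30 to 2.42). Of 53 genes known to be induced by low oxygen, 18 rose and 3 fell, and 15 of the 18 were more than 2-fold above both controls. igfbp1a, which binds insulin-like growth factors, had 4226 in 24H, 355 in 24C and 39.9 in 10C (FC 11.9, 10.6 to 13.3). egln3, an oxygen-sensing prolyl hydroxylase, had an FC of 9.62 (8.63 to 10.7), and slc2a1a, a glucose transporter, had one of 5.18 (4.76 to 5.66). vegfaa rose to 204 in 24H, against 75.9 in 24C, while vegfab fell to 171 in 24H, against 370.1 in 24C.

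Nuclear genes of mitochondrial respiration moved down together by modest amounts. Of 25 genes of complex I, 11 fell and none rose, with a median log2 FC of -0.97, and of 22 genes of complexes II to IV and cytochrome c, 6 fell and none rose, with a median of -0.84. cox7c, a subunit of cytochrome oxidase, had 3608 normalized counts in 24H, 13725 in 24C and 7161 in 10C (FC 0.263, 0.254 to 0.272). ndufb6, of complex I, had 1589 in 24H, 3959 in 24C and 2469 in 10C (FC 0.401, 0.379 to 0.425), and ndufb5 lay at the threshold with an FC of 0.499 (0.466 to 0.535). Of the 17 respiratory chain genes that fell, 14 were up to 2-fold below both controls. In the list of ATP synthase and mitochondrial carriers, 12 of 35 fell and none rose. The carrier gene slc25a38a, described with the red blood cells, was not in this list and rose. slc25a4, an ADP/ATP carrier, had 19.8 in 24H, 5045 in 24C and 12.6 in 10C (FC 0.00393, 0.00249 to 0.00590), whereas its paralogue slc25a5 had 115495 in 24H, 88491 in 24C and 106862 in 10C and did not pass. ucp2, an uncoupling protein, had 2295 in 24H, 10074 in 24C and 13727 in 10C (FC 0.228, 0.218 to 0.238). slc25a25a, an ATP-Mg and phosphate carrier, was also more than 2-fold below both, with 469.7 in 24H, 3043 in 24C and 1111 in 10C.

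Antioxidant genes fell in 17 of 46 cases and rose in 6. sod2, the superoxide dismutase of mitochondria, had 56.9 normalized counts in 24H, 1177 in 24C and 317 in 10C (FC 0.0483, 0.0371 to 0.0620). sod1, the cytosolic enzyme, had 443 in 24H, 2489 in 24C and 1009 in 10C (FC 0.178, 0.161 to 0.196). The peroxiredoxin genes prdx2, prdx3 and prdx5 had FCs of 0.264 (0.257 to 0.271), 0.335 (0.316 to 0.355) and 0.318 (0.308 to 0.328), and catalase, cat, had one of 0.209 (0.180 to 0.243). Among known targets of Nrf2, nqo1 had 2166 in 24H and 2902 in 24C, hmox1 had 2704 in 24H and 3197 in 24C, and neither passed. The subunit genes of glutamate-cysteine ligase, gclc and gclm, had FCs of 1.69 (1.60 to 1.80) and 0.677 (0.621 to 0.738) and did not pass either. The members that rose included abcc2, an efflux transporter gene, with 9467 in 24H and 1653 in 24C (FC 5.73, 5.43 to 6.05), and sqstm1, an autophagy receptor gene, with 3065 in 24H and 1431 in 24C. Of 111 genes of the aryl hydrocarbon receptor and of phase I and II metabolism, 20 rose and 12 fell, and 52 did not reach 100. cyp1a had 2771 in 24H, 792 in 24C and 48.3 in 10C (FC 3.50, 3.23 to 3.80), while cyp1b1 had an FC of 1.2 (1.05 to 1.38).

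The proteasome was the list with the largest share of members below both controls. Of 56 proteasome and ubiquitin genes, 26 fell and 2 rose. Of the 26, 23 were more than 2-fold below both 24C and 10C, against 18.4% of all genes that fell. Over the whole list that is 23 of 56, against 1.69% of all genes. psmd4a, a ubiquitin receptor of the regulatory particle, had 1304 normalized counts in 24H, 6941 in 24C and 3671 in 10C (FC 0.188, 0.178 to 0.199). psmb3, of the core, had 3283 in 24H, 11923 in 24C and 13661 in 10C (FC 0.275, 0.265 to 0.286). vcp, the segregase that feeds the proteasome, had 5719.6 in 24H, 15841 in 24C and 28707 in 10C (FC 0.361, 0.351 to 0.372).

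Genes of the cell cycle and DNA replication fell in 15 of 82 cases (18.3%) and rose in 3, and 11 of the 15 were more than 2-fold below both controls. Of the 82 genes, 80 reached 100 normalized counts, and 15.1% of all genes that did so fell. pcna, the sliding clamp of replication, had 20434 normalized counts in 24H, 65239.5 in 24C and 63956 in 10C (FC 0.313, 0.309 to 0.318). rrm2 and tk1, which supply deoxynucleotides, had FCs of 0.339 (0.330 to 0.349) and 0.275 (0.249 to 0.303), and cdk2 had one of 0.306 (0.284 to 0.330). The mitotic genes top2a, ccnb1 and cdk1 had FCs of 0.772 (0.748 to 0.797), 0.754 (0.727 to 0.782) and 0.531 (0.513 to 0.550) and did not pass. The members that rose were mych, mycn and mycb, of the Myc family, and mycb had 3666 in 24H, 1093 in 24C and 1684 in 10C (FC 3.35, 3.13 to 3.59). Histone and chromatin architecture genes fell in 8 of 42 cases and rose in 1, with hmgb1 at 4581 in 24H, 18034 in 24C and 13514 in 10C (FC 0.254, 0.246 to 0.262) and the linker histone gene h1fx at an FC of 3.39 (3.19 to 3.59). Splicing genes fell in 9 of 66 cases (13.6%) and rose in 1. All 66 reached 100 normalized counts, and 15.1% of all genes that did so fell. Of the 9, 7 were more than 2-fold below both controls, led by lsm6, of the ring that binds U6 RNA. It had 558 in 24H, 3034 in 24C and 2089 in 10C (FC 0.184, 0.168 to 0.20).

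Making of ribosomes and the ribosome itself moved differently. Of 72 ribosome biogenesis genes, 41 rose and none fell, with a median log2 FC of 1.11, and 38 of the 41 lay between the controls. ncl and npm1, abundant proteins of the nucleolus, had 75660.3 and 42193 normalized counts in 24H, 23027 and 16572 in 24C, and 157139 and 128025 in 10C, FCs of 3.29 (3.24 to 3.34) and 2.55 (2.50 to 2.59). gtpbp4 and ddx21 were the 2 members more than 2-fold above both, with FCs of 5.47 (5.35 to 5.59) and 5.20 (5.08 to 5.32). Of 71 cytosolic ribosomal protein genes, 1 fell and none rose, with a median of -0.21, and that member was rps21 with 108600 in 24H and 243058 in 24C (FC 0.447, 0.444 to 0.450).

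Genes of DNA damage, cell death and defence were read next. The list of DNA damage and cell death was drawn up from genes of p53 and of cell death, and DNA repair genes are described apart below. In it, 11 of 53 genes rose (20.8%) and 4 fell (7.55%), with a median log2 FC of -0.003. Of the 53, 47 reached 100, and among all genes that did so 14.8% rose and 15.1% fell. sesn3 had 34674 normalized counts in 24H, 3086 in 24C and 9957 in 10C (FC 11.2, 10.8 to 11.7), and mdm2, a ubiquitin ligase gene, had an FC of 2.15 (2.04 to 2.26). cdkn1a, the p21 gene, had 345 in 24H and 185 in 24C and did not pass. ccng1 and bbc3 had FCs of 0.661 (0.649 to 0.673) and 1.48 (1.16 to 1.91) and did not pass either. Of 41 genes of inflammation and interferon, 9 rose and 2 fell, and 17 did not reach 100. isg15 had 147 in 24H, 33.2 in 24C and 42.0 in 10C (FC 4.42, 3.0 to 6.71), and stat1a had an FC of 2.76 (2.41 to 3.18). il1b, the interleukin 1 beta gene, stood at 30.2 in 24H and 11.8 in 24C, under the minimum.

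Metabolic lists held genes that moved both ways. In glycolysis, pyruvate and citric acid metabolism, 10 of 52 genes rose (19.2%) and 11 fell (21.2%). Of the 52, 49 reached 100, and among all genes that did so 14.8% rose and 15.1% fell. Those that rose included gpia, a glucose-6-phosphate isomerase gene, with 10314 normalized counts in 24H, 2248 in 24C and 946 in 10C (FC 4.59, 4.38 to 4.81). The aldolase gene aldoaa also rose, to 73888 in 24H, against 18050 in 24C and 42934 in 10C (FC 4.09, 4.03 to 4.16). Those that fell included some muscle isoforms, such as pgam2 with 417 in 24H and 3254 in 24C (FC 0.128, 0.116 to 0.141) and pfkmb with an FC of 0.0526 (0.0379 to 0.0714). In cholesterol and fatty acid metabolism, 9 of 49 rose (18.4%) and 7 fell (14.3%). Of the 49, 43 reached 100, so the list lay near the 14.8% and 15.1% of such genes. dhcr7, the last enzyme of cholesterol synthesis, had an FC of 4.48 (4.08 to 4.92), and elovl6, a fatty acid elongase, had one of 0.277 (0.234 to 0.328). Circadian and light-induced genes rose in 2 (6.06%) and fell in 4 (12.1%) of 33 cases, against 9.05% and 9.21% of all genes. Germ line genes rose in 8 of 18 cases and fell in none, with zp2, an egg coat gene, at 2769 in 24H, 517 in 24C and 9757 in 10C, while the germ cell genes vasa and nanos3 had FCs of 1.67 (1.36 to 2.06) and 1.3 (1.03 to 1.66) and did not pass. Of the 18, 11 reached 100 in either library and 5 in both, so some were let in only through the library where they were high.

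Several of the largest gains in normalized counts were genes under 2-fold. ef1a, a translation elongation factor gene, had 1315910 normalized counts in 24H, 703840 in 24C and 1339050 in 10C, an FC of 1.87 (1.86 to 1.88). krt4, a periderm keratin gene, had 1288460 in 24H, 706102 in 24C and 476425 in 10C, an FC of 1.82 (1.82 to 1.83), and cyt1 and cyt1l, 2 near-identical keratin genes, had an FC of 1.56 each. bactin2, an actin gene often used as a reference, had 391255 in 24H and 254976 in 24C, an FC of 1.53 (1.53 to 1.54). These genes are among the most abundant of the libraries, and with 1 library per group such differences cannot be told apart from differences between pools.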

How the data were processed

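Polyadenylated RNA of pooled whole embryos was sequenced on an Illumina HiSeq instrument, with 1 library per group, so no replicate error could be measured. The authors deposited a table of a normalized signal per gene symbol for the 6 libraries. Their sources name TMM scaling, and the submitters' notes name the builds Zv9 and hg19 without their roles. Every deposited value was a whole multiple of one step per library (100% within 0.001), so whole reads were recovered. The deposited values equalled these reads divided by median-of-ratios size factors over the 17335 entries with reads in all 6 libraries (largest deviation 3.1e-15), not TMM values. They were used as deposited, and TMM was computed with edgeR 4.0.16 as an alternative chosen after seeing the data.

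FC is 24H over 24C, called past 2-fold with at least 100 normalized counts in the higher library. Intervals are 95% Clopper-Pearson intervals on reads, and a library at 0 was set at a floor of 3 reads (2.59 normalized counts in 24H and 3.21 in 24C). Gene names were matched through RefSeq gene tables (GRCz12tu, names only): with each gene counted once per list, 1680 list members were matched by name, 159 through an accession, 17 by an older name and 807 by family patterns, and 310 listed symbols did not match. Some symbols are cut short in the table and may pool genes, and 9 names had been turned into dates. Members and lists were chosen with earlier results of these data known. Named genes were the 15 highest and lowest FCs, the 10 furthest outside both controls, the 10 largest gains and losses, the 4 highest and lowest changed members of each list, and defining markers. Other named genes, such as some unchanged ones, were chosen after their values were seen. The scripts were tested on simulated counts. Python 3.11.15, pandas 2.3.3, scipy 1.17.1 and R 4.3.3 were used.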

Additional observations from a re-analysis of the deposited data

Results flagged for a closer look

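Among 278 named genes that passed at 24 hpf and had at least 100 normalized counts in 10H or 10C, 24 were past 2-fold in the opposite direction in 10H (200 μg/l PCP, 10 hpf) over 10C, and 40 were past 2-fold in the same direction. Over all 2508 genes that met both conditions, 125 (4.98%) were opposite and 302 (12%) moved the same way. The named genes were chosen for their values at 24 hpf. The difference between the ages was not tested, since each group is 1 library. Of these genes, 20 were higher in 24H and lower in 10H. The FCs of 10H over 10C were 0.421 for abcb11a, 0.227 for anpep, 0.422 for cha, 0.304 for col7a1l, 0.398 for col8a1a, 0.109 for egr2b, 0.260 for emilin3a, 0.115 for etv2, 0.269 for eya1 and 0.309 for hoxa9b. They were 0.388 for hsp70, 0.334 for hsp90a, 0.188 for kbtbd10b, 0.174 for mafba, 0.415 for meox1, 0.487 for mycb, 0.320 for nr2f5, 0.461 for rx3, 0.155 for sox10 and 0.434 for sox9a. The other 4 were lower in 24H and higher in 10H, with FCs of 10H over 10C of 2.38 for cat, 2.39 for dab2, 2.76 for epyc and 2.68 for pnp4a. egr2b, for example, had 75.7 normalized counts in 10H and 694 in 10C, and 1304 in 24H and 67.4 in 24C.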

How the results depend on the processing

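No paired analysis was possible because each group is 1 library. Main counts were 1920 genes higher, 1955 lower, 774 above both controls and 359 below both. Library totals gave 1849, 2019, 762 and 369, and TMM gave 2074, 1841, 841 and 319; the share of calls that were higher was 49.5%, 47.8% and 53%, and TMM raised each FC by a factor of 1.03 (median log2 0.10). With no minimum, 3935 were lower and 945 below both. With a minimum of 500, 988 were lower, 479 above both and 211 below both. At 4-fold the counts were 425, 625, 114 and 24, and at 1.5-fold 3417, 3268, 1525 and 973. With the whole interval past 2-fold, 217 were below both. edgeR's exact test, run with a biological coefficient of variation set by hand to 0.2, kept 1660 higher and 1732 lower genes, and with 0.4 it kept 129 and 236; neither value was measured. Of 360 list counts recomputed under the scalings 3 moved by over 1.5 times, for splicing (0 higher under totals, 2 under TMM) and cadherins (3 lower under TMM). The named FCs were recomputed 1458 times under the scalings, and 5 calls near the threshold were lost. None turned round, but this was no test of direction. Each scaling multiplied all FCs by a single factor, between 0.983 and 1.03, so an FC past 2-fold could not have turned round. Median-of-ratios factors gave the deposited values again, so their share of these recomputations and of the list counts repeats the main result. The median over changed genes was 867 reads in whichever library was higher, and the spread between pools of embryos was not measured.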

Other observations

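The following gene groups were put together after their values were seen, so their counts describe these 2 libraries only. They are set beside the shares over all genes, of which 9.05% rose, 9.21% fell, 3.65% rose to more than 2-fold above both controls and 1.69% fell to more than 2-fold below both. Of the genes that rose, 40.3% were more than 2-fold above both, and of those that fell, 18.4% were more than 2-fold below both. Among genes that reached 100 normalized counts in either library, 14.8% rose and 15.1% fell. All 61 DNA repair genes, all 40 mitochondrial ribosomal protein genes and 64 of 67 translation factor genes below reached 100. So did 56 of 57 polymerase, TFIIH and Mediator genes, 19 of 20 signalosome and NEDD8 genes and 46 of 52 lysosomal genes. For these lists, 14.8% and 15.1% are the closer levels. Genes with symbols of the slc1, slc3, slc7, slc36, slc38 and slc43 families, mainly amino acid transporters, rose in 11 of 37 cases (29.7%) and fell in 5 (13.5%). Of the 11, 7 were more than 2-fold above both 24C and 10C. The 37 were matched by symbol, so the group is not complete. It counts slc7a6os and lacks slc7a8b, which the paper lists among the most raised genes of 24H. slc38a3, a glutamine transporter, had 21190.2 normalized counts in 24H, 3103 in 24C and 6254 in 10C (FC 6.83, 6.57 to 7.10). slc43a2b, a carrier of large neutral amino acids, had 54459.8 in 24H, 12778 in 24C and 14691 in 10C (FC 4.26, 4.18 to 4.35). slc3a2, the common heavy chain of several such carriers, had 14867 in 24H and 4500.2 in 24C (FC 3.30, 3.19 to 3.42). The 5 that fell included the glial glutamate transporter genes slc1a2b and slc1a3b, with FCs of 0.289 (0.259 to 0.322) and 0.0647 (0.0377 to 0.105). Enzymes that modify collagen rose in 11 of 27 cases (40.7%) and fell in none, and all 11 were above both controls. The prolyl hydroxylase gene p4ha1b had 20988 in 24H, 2957 in 24C and 1179 in 10C (FC 7.10, 6.82 to 7.39), and the lysyl hydroxylase gene plod2 had 4581 in 24H, 369 in 24C and 1864 in 10C (FC 12.4, 11.1 to 13.9).

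A few single genes of muscle cells, picked for their values, were more than 2-fold above both controls. jam2a, an adhesion receptor of fusing myoblasts in zebrafish, had 1935 normalized counts in 24H, 233 in 24C and 67.2 in 10C (FC 8.30, 7.22 to 9.58). cdh15, the muscle cadherin, had 1094 in 24H, 237 in 24C and 2.1 in 10C (FC 4.61, 3.99 to 5.34). musk, the kinase of the neuromuscular synapse, had 546 in 24H, 109 in 24C and 43 in 10C (FC 5.01, 4.06 to 6.23), and flncb, a filamin of muscle, had 12067 in 24H, 1432 in 24C and 1757 in 10C (FC 8.42, 7.96 to 8.92).

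DNA repair genes fell in 10 of 61 cases (16.4%) and rose in 2, and 8 of the 10 were more than 2-fold below both, with dut, which keeps uracil out of DNA, at 1939 in 24H, 10498 in 24C and 5005 in 10C (FC 0.185, 0.176 to 0.193). Subunits of RNA polymerase II, TFIIH and Mediator fell in 4 of 57 cases (7.02%), under the 15.1% of all genes that reached 100. All 4 were more than 2-fold below both controls, against 18.4% of all genes that fell. Over the whole list that is 4 of 57, against 1.69% of all genes. The median log2 FC of the list was -0.35. Genes of the signalosome and NEDD8 conjugation fell in 5 of 20 cases, with nedd8 itself at 1693 in 24H, 4202 in 24C and 3595 in 10C. Mitochondrial ribosomal protein genes fell in 5 of 40 cases (12.5%) and rose in none. Translation factor genes rose in 9 (13.4%) and fell in 4 (5.97%) of 67 cases. Among them eif2ak1, a kinase of the integrated stress response, had 3657 in 24H, 1335 in 24C and 1101 in 10C (FC 2.74, 2.57 to 2.92). The related kinase genes eif2ak3 and eif2ak2 did not rise: eif2ak3 had an FC of 1.03 (0.944 to 1.12), and eif2ak2 stayed under 100 in both libraries. Lysosomal genes rose in 4 and fell in 4 of 52 cases (7.69% each), under the 14.8% and 15.1% of all genes that reached 100.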
